A study of Mus musculus with 6 samples.

Results

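Basophils, mast cells and eosinophils are granulocytes of allergic and antiparasite immunity, and 9 genes that mark them were followed in RNA of short-term hematopoietic stem cells (ST-HSC) from mouse bone marrow. The 9 were taken by symbol from the 53677 rows of the deposited table, and all 9 were found there. They fall into 3 basophil genes (Prss34, Mcpt8 and Fcer1a), 3 mast cell genes (Cpa3, Ms4a2 and Cma1) and 3 eosinophil genes (Il5ra, Prg2 and Epx). The classes are not exclusive, because basophils and mast cells share the IgE receptor, to which Fcer1a and Ms4a2 both contribute, and both cell types make Cpa3. Libraries came from 3 C57BL/6J mice labelled dnTCF4+/+, which express dnTCF4, a dominant-negative form of the transcription factor TCF4, and from 3 C57BL/6J wild-type (WT) mice labelled dnTCF4-/-. The cells were sorted as Lin- ckit+ CD48+ CD150-, with no Sca-1 gate named, and neither the lineage antibodies, nor the promoter that drives dnTCF4, nor the age of the mice is stated in the labels. The comparison asked how blocking transcription through beta-catenin and TCF/LEF factors alters these progenitors, in a study known to be concerned with granulocyte production.

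Basophils and mast cells arise from progenitors in the marrow that are also found among Kit-positive, lineage-negative cells, under the transcription factors GATA2 and C/EBP alpha, and mast cell precursors leave the marrow to mature in tissues. Eosinophils arise through GATA1 and C/EBP factors and depend on interleukin-5. The IgE receptor that triggers basophils and mast cells consists of an alpha chain that binds IgE (Fcer1a), a beta chain that amplifies the signal (Ms4a2) and a gamma chain shared with other Fc receptors (Fcer1g). Granules hold the effector proteins, among them proteases of basophils (Mcpt8, Prss34) and mast cells (Cma1, Cpa3) and the basic proteins of eosinophils (Prg2, Epx).

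Values are RPKM, that is, reads per kilobase of exon scaled by the number of counted reads. This corrects for exon length and depth, not for differences in composition between libraries. Factors for median ratio scaling ran from 0.83 (WT replicate 1) to 1.19 (dnTCF4 replicate 3). Values were higher in dnTCF4 for 68.5% of tested genes as RPKM and for 41.4% after that scaling. Libraries held 57400000 to 110900000 counted reads in dnTCF4 and 61800000 to 67700000 in WT. Immunoglobulin genes took 0.732% to 1.55% of the reads in dnTCF4 and 7.22% to 14.8% in WT. Replicate 1 of each genotype carried Y-linked transcripts (Ddx3y at 24.78 RPKM in dnTCF4 and 30.5 RPKM in WT), and replicates 2 and 3 did not. Genes of the sort were present as labelled, with Kit at 35.5 to 97.14 RPKM and Cd48 at 813.4 to 1415 RPKM over the 6 libraries, and Slamf1, the gene of CD150, at 0.7444 to 1.18 RPKM. Differences were tested with limma on log2(RPKM + 1) over the 11326 genes that averaged 1 RPKM or more, as dnTCF4 minus WT, with Benjamini-Hochberg adjustment over all of them. In that test 34 genes were called at an adjusted p under 0.05, which is 0.3% of those tested (0.0441% higher and 0.256% lower; the 5 higher calls were 0 after median ratio scaling, when 18 lower ones were made), and the median log2 fold change of all tested genes was 0.14 (-0.05 after median ratio scaling). The p-values rest on 3 mice against 3.

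All 9 genes were read in these progenitors, and their order by level was not the same in the 2 genotypes. In dnTCF4 the order by mean was Cpa3 (245.4 ± 74.7 RPKM), Prg2 (105.3 ± 38.2), Prss34 (56.79 ± 8.77), Mcpt8 (51.89 ± 11), Cma1 (19.14 ± 11.9), Ms4a2 (11.72 ± 3.94), Fcer1a (11.70 ± 6.55), Epx (1.019 ± 0.776) and Il5ra (0.2348 ± 0.158; SD, n = 3 each). In WT it was Prss34 (162.1 ± 66.5 RPKM), Cpa3 (161.4 ± 33.4), Prg2 (132.2 ± 93.8), Mcpt8 (105.1 ± 22.4), Fcer1a (23.55 ± 3.93), Ms4a2 (8.807 ± 2.29), Cma1 (6.608 ± 1.83), Il5ra (1.845 ± 1.09) and Epx, which was listed at 1.559, 0.7749 and 0 RPKM. Neighbours that differed by less than the larger of their SDs, and so have no settled order, were Prss34 and Mcpt8 and then Cma1, Ms4a2 and Fcer1a in dnTCF4. In WT these were Prss34, Cpa3, Prg2 and Mcpt8, then Ms4a2 and Cma1, and last Il5ra and Epx. Of the 9 genes, 8 reached the mean of 1 RPKM, and Epx did not. Mcpt8 and Cpa3 overlap another annotated gene, in each case a microRNA gene on the same strand, and the other 7 overlap none. Il5ra passed with a mean of 1.04 RPKM over the 6 libraries through its WT values alone.

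**Figure D1:**
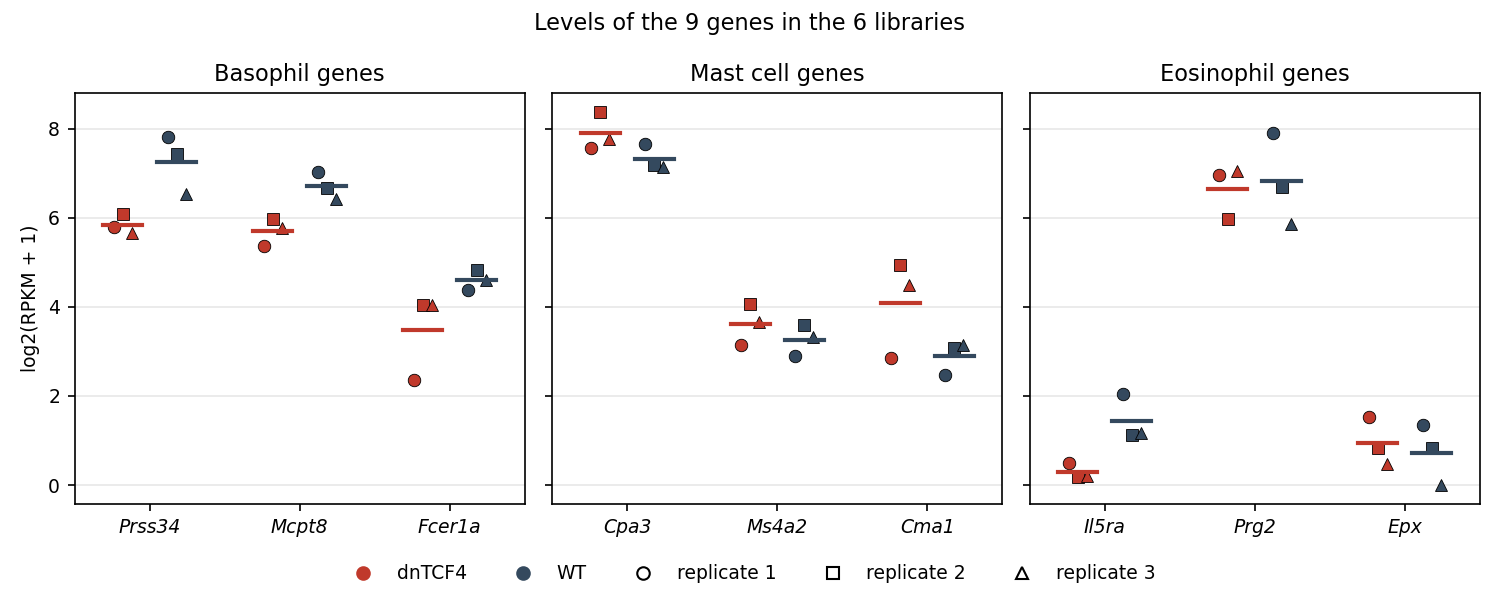
Levels of the 9 genes in each library, as log2(RPKM + 1), with dnTCF4 in red and WT in dark blue; marker shapes give the replicate number and horizontal bars the mean of 3 libraries. The dnTCF4 points of Prss34, Mcpt8, Fcer1a and Il5ra lie below all WT points of the same gene, while the groups of the other 5 genes overlap.

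By the limma test 0 of the 8 tested genes were called, against 0.3% of all genes, and 0 with the replicate number as a block, against 0.433%. An unadjusted p under 0.05 was reached by 4 of 8, against 9.62% of all genes. Voom on recovered reads tested 7 of them, Prss34 not among them, and called 0. It gave 4 an unadjusted p under 0.05, with Mcpt8, Fcer1a and Il5ra lower in dnTCF4 and Cpa3 higher. Of all 10004 genes tested by voom, 937 reached that level. The groups did not overlap for 4 of the 8, against 17.7% of all tested genes, in each case with dnTCF4 lower (Prss34, Mcpt8, Fcer1a and Il5ra), against 2.26% in that direction. These 4 were therefore also lower in all 3 pairs of equal number, as were 4.78% of all tested genes. Genes that were higher in dnTCF4 without overlap made up 15.4% of all genes and 0 of the 8. Il5ra entered the test only through its WT values and could enter only if the genotypes differed. Without it the counts are 3 of 7. The genes were chosen with earlier results of these data known, so their counts beside the shares of all genes are a description only. In pairs of libraries with the same replicate number, Ms4a2 and Cma1 were higher in dnTCF4 in all 3 pairs, as were 37.3% of all tested genes; after median ratio scaling Ms4a2 was higher in 2 of 3. In bulk RNA such as this, fewer cells of a type and less RNA per cell cannot be told apart.

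Promoters of the 4 lower genes and of Cpa3, the most abundant mast cell gene, are shown to let their sequence be compared, since the members of a class share regulators of the GATA family. Each window runs from 250 bases before to 50 bases after the annotated start (RefSeq, GRCm38.p6), 5′ to 3′ on the strand of the gene, with matches to GATAA, or to its complement TTATC, in capitals. The windows are chr17:25298144-25298443 on the plus strand for Prss34, and, on the minus strand, chr14:56085148-56085447 for Mcpt8, chr1:173227180-173227479 for Fcer1a, chr6:106748988-106749287 for Il5ra and chr3:20242132-20242431 for Cpa3.
Prss34: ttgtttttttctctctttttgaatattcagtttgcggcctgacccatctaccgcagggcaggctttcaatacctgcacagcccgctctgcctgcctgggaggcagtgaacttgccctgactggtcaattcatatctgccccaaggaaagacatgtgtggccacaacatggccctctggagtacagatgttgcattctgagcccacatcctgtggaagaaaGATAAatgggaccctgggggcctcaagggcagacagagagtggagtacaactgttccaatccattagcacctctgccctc
Mcpt8: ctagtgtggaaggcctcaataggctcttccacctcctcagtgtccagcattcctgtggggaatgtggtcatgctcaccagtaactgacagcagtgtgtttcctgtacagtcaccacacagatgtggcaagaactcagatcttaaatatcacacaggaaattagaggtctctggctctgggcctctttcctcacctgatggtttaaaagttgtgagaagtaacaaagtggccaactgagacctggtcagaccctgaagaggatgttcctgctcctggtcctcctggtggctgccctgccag
Fcer1a: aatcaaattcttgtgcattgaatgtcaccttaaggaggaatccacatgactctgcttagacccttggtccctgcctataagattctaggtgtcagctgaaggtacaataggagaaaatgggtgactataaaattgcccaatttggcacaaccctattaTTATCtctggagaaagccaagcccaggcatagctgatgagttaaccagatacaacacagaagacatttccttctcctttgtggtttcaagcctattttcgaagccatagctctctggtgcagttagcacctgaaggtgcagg
Il5ra: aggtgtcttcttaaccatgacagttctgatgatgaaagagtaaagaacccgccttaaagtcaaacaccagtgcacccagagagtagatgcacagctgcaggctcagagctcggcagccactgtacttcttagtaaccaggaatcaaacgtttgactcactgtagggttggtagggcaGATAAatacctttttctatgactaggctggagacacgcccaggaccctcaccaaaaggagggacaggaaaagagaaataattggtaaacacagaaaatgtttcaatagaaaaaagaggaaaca
Cpa3: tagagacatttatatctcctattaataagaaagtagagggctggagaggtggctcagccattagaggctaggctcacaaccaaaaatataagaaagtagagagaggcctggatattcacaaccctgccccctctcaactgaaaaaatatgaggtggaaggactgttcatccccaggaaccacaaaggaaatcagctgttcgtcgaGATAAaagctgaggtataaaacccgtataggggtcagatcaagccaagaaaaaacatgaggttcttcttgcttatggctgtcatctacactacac
Windows were found for 8 of the 9 genes. GATAA occurred on either strand in 6 of the 8 (Prss34, Fcer1a, Il5ra, Cpa3, Cma1 and Ms4a2), against 25.4% of 32851 windows of all genes, and Ms4a2 held 3 matches. Mcpt8 and Epx had none. CTTTGA, a form of the core letters of TCF/LEF sites, occurred in 0 of the 8 windows, against 16% of all windows. The form CTTTGT was not searched. It or its complement ACAAAG stands in the printed windows of Mcpt8, Fcer1a and Cpa3, and its share of all windows was not counted. TTCNNNGAA, the letters of STAT sites, occurred in 0 of 8, against 8.3%, and CANNTG, the E-box, in 7 of 8, against 72.3%. Lower and overlapping genes were found both with and without GATAA, and a match is a description of these letters, not of a bound site.

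The 3 basophil genes had lower values in every dnTCF4 library than in any WT library, by 2.01-fold to 2.86-fold in the means. None passed the limma test, and all 3 had an unadjusted limma p under 0.05, against 2.1% of all tested genes in that direction. These genes were chosen with earlier results of these data known, so the count is a description and not a test. Prss34 encodes mast cell protease 11, a trypsin-like enzyme made by basophils (GRCm38 chromosome 17, 25298394 to 25300165). It was at 54.83, 66.37 and 49.17 RPKM in dnTCF4 replicates 1, 2 and 3, and at 223.7, 171 and 91.71 RPKM in WT replicates 1, 2 and 3. The dnTCF4 values were close together, whereas those of WT spread widely, and the lowest WT library was nearest to the dnTCF4 ones. Limma gave a log2 fold change of -1.42 (SE 0.33, 95% confidence interval -2.19 to -0.64, limma adjusted p = 0.19). Per pair of equal number the dnTCF4 value was 0.245, 0.388 and 0.536 of the WT value.

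Mcpt8, mast cell protease 8, encodes a granule protease that in mice marks basophils rather than mast cells (chromosome 14, 56082166 to 56085273). It was at 39.98, 61.7 and 53.99 RPKM in dnTCF4 replicates 1, 2 and 3, and at 129.4, 100.9 and 85.18 RPKM in WT replicates 1, 2 and 3. Each dnTCF4 library lay below each WT library, with the largest gap between the replicates 1. Limma gave a log2 fold change of -1.01 (SE 0.24, 95% confidence interval -1.57 to -0.45, limma adjusted p = 0.20). These values rest on 2516 to 6829 reads in dnTCF4 libraries and 5756 to 8198 in WT libraries.

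Fcer1a, the IgE-binding alpha chain (chromosome 1, 173221284 to 173227214), was at 4.131, 15.39 and 15.58 RPKM in dnTCF4 replicates 1, 2 and 3, and at 19.71, 27.56 and 23.38 RPKM in WT. The first dnTCF4 library stood well below the other 2, and the groups did not overlap. Its log2 fold change was -1.12 (SE 0.45, limma adjusted p = 0.50), and without dnTCF4 replicate 1 it was -0.56. An exact two-sided permutation test gave p = 0.1 for each of the 3 basophil genes, the smallest that 3 libraries against 3 allow. In replicates 2 and 3 only, the libraries without Y-linked transcripts, the log2 fold changes were -1.12 for Prss34, -0.67 for Mcpt8 and -0.68 for Fcer1a, with limma adjusted p of 0.63, 0.63 and 0.62; a single pair of libraries with such transcripts allows no test.

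The other chains of the IgE receptor did not share the lower values of Fcer1a. Ms4a2, the beta chain (chromosome 19, 11615523 to 11623719), was at 7.824, 15.69 and 11.65 RPKM in dnTCF4 and at 6.439, 11 and 8.983 RPKM in WT. Within both genotypes replicate 2 was highest and replicate 1 lowest, and each dnTCF4 library was above the WT library of its number by 1.22-fold to 1.43-fold. The log2 fold change of 0.35 (SE 0.29, 95% confidence interval -0.33 to 1.04) did not pass the test (limma adjusted p = 0.71). It was 0.13 without dnTCF4 replicate 2, 0.17 without WT replicate 1, 0.59 without dnTCF4 replicate 1 and 0.14 after median ratio scaling, which put the ratio of the replicates 1 at 0.951. Fcer1g, the gamma chain, was at 566.1, 451 and 264.1 RPKM in dnTCF4 and at 220.9, 334.7 and 290.9 RPKM in WT, with overlapping groups (log2 fold change 0.55, limma adjusted p = 0.62). Its log2 fold change was 0.31 without dnTCF4 replicate 1, 0.86 without dnTCF4 replicate 3, 0.15 in replicates 2 and 3 only and 0.31 after median ratio scaling.

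Mast cell proteases had higher mean values in dnTCF4, with overlapping groups. Cpa3, carboxypeptidase A3, is stored in granules of mast cells and basophils and is read early in their progenitors (chromosome 3, 20215620 to 20242181). Its level was 189.7, 330.2 and 216.4 RPKM in dnTCF4 replicates 1, 2 and 3, and 199.8, 145.4 and 139 RPKM in WT replicates 1, 2 and 3. Only WT replicate 1 reached into the range of dnTCF4. Limma gave a log2 fold change of 0.58 (SE 0.26, 95% confidence interval -0.03 to 1.19, limma adjusted p = 0.55), and it was 0.35 without dnTCF4 replicate 2 and 0.35 after median ratio scaling.

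Cma1 encodes a chymase of connective tissue mast cells (chromosome 14, 55941451 to 55944675). It stood at 6.27, 29.72 and 21.44 RPKM in dnTCF4 replicates 1, 2 and 3, and at 4.508, 7.456 and 7.859 RPKM in WT replicates 1, 2 and 3. Replicates 2 and 3 of dnTCF4 were above all WT libraries, while dnTCF4 replicate 1 lay among them. Its log2 fold change came to 1.20 (SE 0.52, 95% confidence interval -0.02 to 2.42, limma adjusted p = 0.53). It was 1.82 without dnTCF4 replicate 1 (limma adjusted p = 0.15) and 0.78 without dnTCF4 replicate 2 (limma adjusted p = 0.58).

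Ratios between genes of a library do not depend on how that library was scaled. The ratio of Mcpt8 to Cpa3 was 0.211, 0.187 and 0.250 in dnTCF4 replicates 1, 2 and 3, and 0.648, 0.694 and 0.613 in WT. Prss34 stood to Cpa3 at 0.201 to 0.289 in dnTCF4 and at 0.660 to 1.18 in WT. The ratio of the alpha to the beta chain of the IgE receptor, Fcer1a to Ms4a2, was 0.528 to 1.34 in dnTCF4 and 2.51 to 3.06 in WT. All 3 ratios were lower in every dnTCF4 library than in any WT library; they were chosen after the values of the genes had been seen and were not tested.

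**Figure D2:**
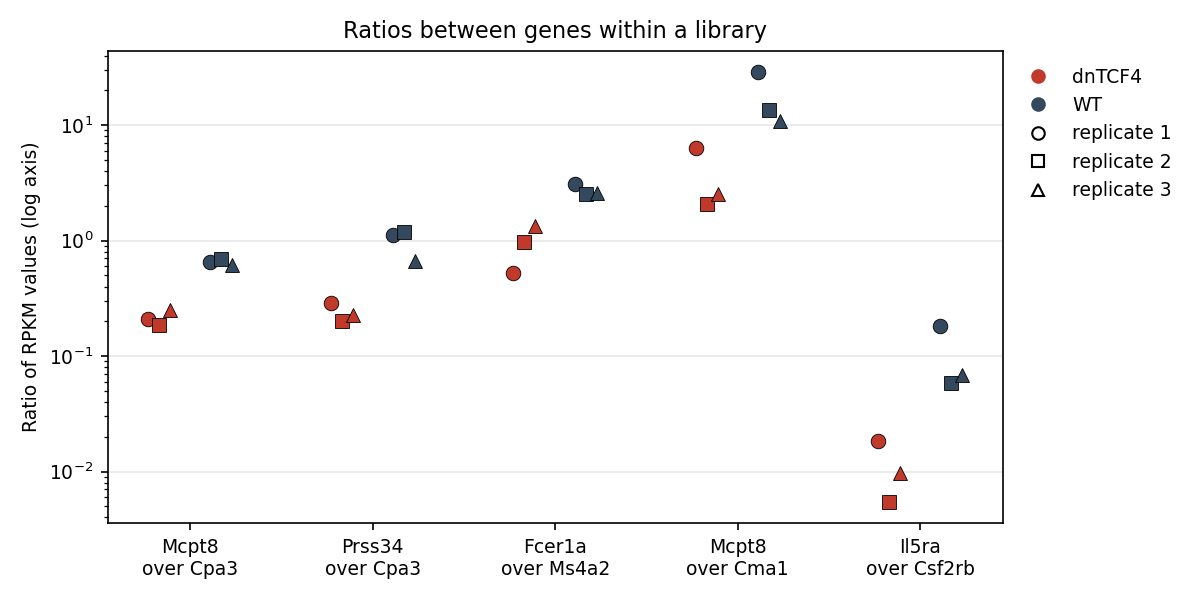
Ratios of RPKM values between pairs of genes within each library, on a log axis, with dnTCF4 in red to the left of WT in dark blue and marker shapes for the replicate number. For each of the 5 ratios, the 3 dnTCF4 points lie below the 3 WT points, and for Mcpt8 over Cpa3 they sit at 0.187 to 0.250 in dnTCF4 against 0.613 to 0.694 in WT.

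Among the 9 genes Il5ra had the largest ratio between the genotype means. It encodes the alpha chain of the interleukin-5 receptor, which is carried in mice by eosinophils and their precursors and also by B-1 cells and some antibody-secreting cells (chromosome 6, 106710357 to 106749037). It was at 0.4169, 0.1413 and 0.1462 RPKM in dnTCF4 replicates 1, 2 and 3, from 94, 56 and 30 reads, and at 3.106, 1.177 and 1.252 RPKM in WT replicates 1, 2 and 3, from 705, 260 and 303 reads. The groups were far apart, replicate 1 was highest in both, and the mean was 7.86-fold lower in dnTCF4. Pair by pair the dnTCF4 value was 0.134, 0.120 and 0.117 of the WT value. On log2(RPKM + 1), which understates the change of so low a gene, Il5ra differed by -1.15 (SE 0.26, 95% confidence interval -1.77 to -0.53, limma adjusted p = 0.19). With the replicate number as a block it was not called (limma adjusted p = 0.076), and it was called with the block after median ratio scaling (limma adjusted p = 0.046) and with the block in voom on recovered reads (log2 fold change -2.99, limma adjusted p = 0.020), 2 fits added after the data had been seen. All of these p-values are conditioned on a filter that Il5ra passed only through its WT values, and with no filter the limma adjusted p was 0.44.

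The beta chain shared by the receptors for interleukin-3, interleukin-5 and GM-CSF, Csf2rb, did not follow Il5ra. It was at 22.65, 25.8 and 15.15 RPKM in dnTCF4 and at 16.94, 20.26 and 18.29 RPKM in WT (log2 fold change 0.16, limma adjusted p = 0.78; -0.06 after median ratio scaling). Its near-identical copy Csf2rb2 makes the split of reads between them uncertain. Genes of the B and plasma cell lineage were lower in the same libraries as Il5ra. Jchain, which joins antibody units, was at 611.5, 284.1 and 614.7 RPKM in dnTCF4 and at 7568, 2592 and 2482 RPKM in WT, and Mzb1, a chaperone of antibody-secreting cells, was at 40.98, 12.3 and 21.03 RPKM in dnTCF4 and at 214.4, 88.52 and 103.4 RPKM in WT. Mzb1 was called with the replicate block (limma adjusted p = 0.031) and not without it (limma adjusted p = 0.14). Prdm1, the regulator of plasma cell identity, was at 0.1393, 0.1681 and 0.1593 RPKM in dnTCF4 and at 1.124, 1.045 and 1.003 RPKM in WT. Over all 10 markers of B and plasma cells the summed level was 5064 to 11630 RPKM in dnTCF4 and 50670 to 95650 RPKM in WT, none was at 0 in all libraries, and of the 8 tested 7 had lower values and 2 were called. Ms4a1, which marks mature B cells, was at 0.1749 to 0.9355 RPKM in dnTCF4 and at 0.3891 to 1.268 RPKM in WT, with overlap. The part of these B lineage transcripts in the Il5ra result was not tested.

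**Figure D3:**
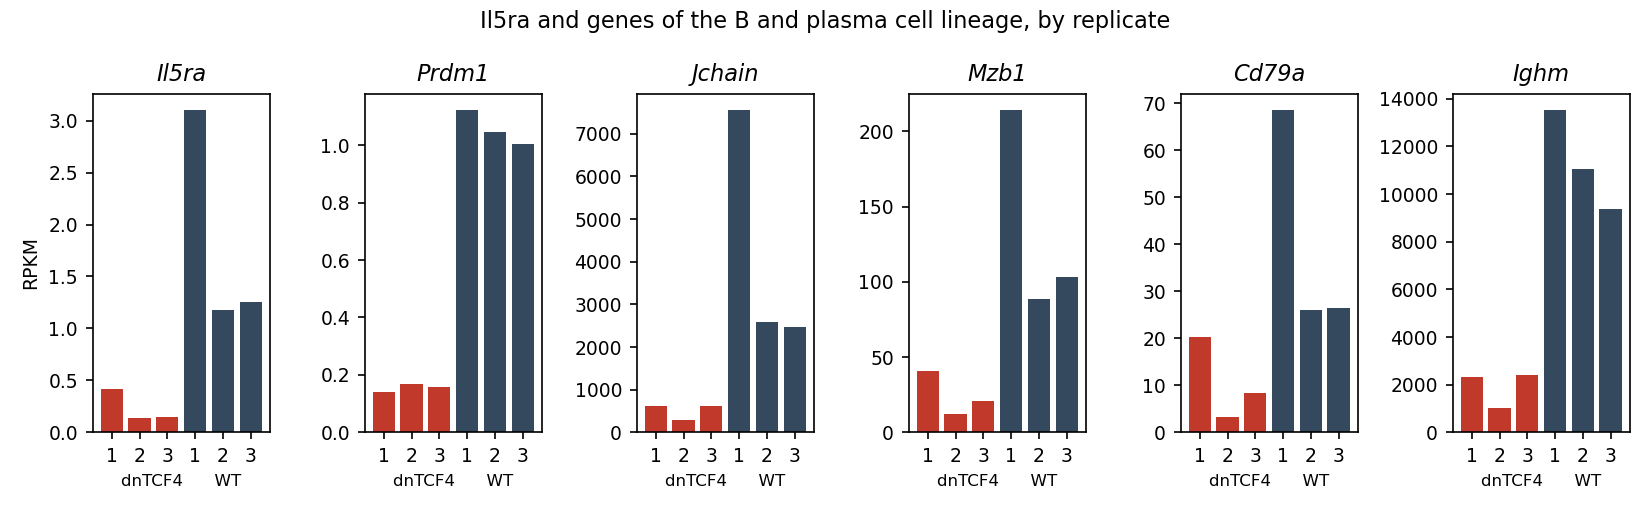
RPKM (axis from 0, a scale for each gene) of Il5ra and of 5 genes of the B and plasma cell lineage in each library, with dnTCF4 replicates 1 to 3 in red and WT replicates 1 to 3 in blue. For each of the 6 genes every dnTCF4 bar is below every WT bar, and WT replicate 1 has the highest bar.

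Granule proteins of eosinophils gave no such difference. Prg2, major basic protein (chromosome 2, 84980461 to 84983632), was at 123.5, 61.43 and 130.9 RPKM in dnTCF4 replicates 1, 2 and 3, and at 237.3, 102.5 and 57.02 RPKM in WT replicates 1, 2 and 3. WT held both the highest and the lowest library, and the dnTCF4 value was lower in 2 pairs and higher in 1. Limma gave a log2 fold change of -0.16 (SE 0.53, 95% confidence interval -1.41 to 1.09, limma adjusted p = 0.90), and its sign turned without WT replicate 1 (0.38). Epx, eosinophil peroxidase (chromosome 11, 87864000 to 87875536), was at 1.883, 0.7907 and 0.382 RPKM in dnTCF4 and at 1.559, 0.7749 and 0 RPKM in WT, where the third library had 0 of 67700000 reads, which allows up to 0.0162 RPKM at a limit of 3 reads. It followed the replicate number more than the genotype, with replicate 1 highest and replicate 3 lowest in both. The share of Il5ra relative to Prg2 was 0.00112 to 0.00338 in dnTCF4 and 0.0115 to 0.0220 in WT.

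Further genes of the 3 lineages were taken from lists of 20 basophil, 27 mast cell and 17 eosinophil genes, 16 genes of IgE receptor signalling and 26 lineage regulators. Together they hold 106 genes, of which 71 were tested and 0 were called, against 0.3% of all genes. Unadjusted limma p under 0.05 was reached by 14 of the 71, 13 of them higher, against 7.52% of all genes in that direction. Voom gave 0 calls among 60 and 11 at that level in either direction, against 937 of the 10004 genes that it tested. After median ratio scaling the higher genes Lilrb4a, Itgb7, Adgre1 and Cebpb and the lower gene Xbp1 kept such a p. The higher genes Ccl4, Il4, Srgn, Il1rl1, Ear2, Lcp2, Btk, Lyn and Zfpm1 did not (unadjusted limma p of 0.06 to 0.17). Higher values in dnTCF4 were seen for 56 of the 71, against 68.5% of all tested genes, with a median log2 fold change of 0.24 against 0.14 for all tested genes, and for 39 of 71 after median ratio scaling, against 41.4% of all genes, with a median of 0.05 against -0.05. The groups did not overlap for 10 in the higher direction, against 15.4% of all genes, and for 2 in the lower direction, against 2.26%. Cebpb and Zfpm1 are among the 13 higher genes and among these 10. Both entered the test only through their dnTCF4 values, so their p and their lack of overlap are conditioned on the filter.

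The basophil list beyond the 3 genes above held values in both directions. Of its 14 tested genes 11 had higher values in dnTCF4 (6 after median ratio scaling), 0 were called, and the median log2 fold change was 0.19. Lilrb4a, an inhibitory receptor of myeloid and mast cells, was at 5.273, 5.851 and 6.629 RPKM in dnTCF4 and at 2.604, 2.065 and 2.53 RPKM in WT, without overlap (log2 fold change 1.02, limma adjusted p = 0.095). The chemokine genes Ccl3 and Ccl4, expressed by many myeloid cells besides basophils, averaged 211 ± 69.2 and 253.4 ± 83.9 RPKM in dnTCF4 and 114.8 ± 65.9 and 98.92 ± 69.6 RPKM in WT (limma adjusted p = 0.53 for Ccl3 and 0.37 for Ccl4). Il4, the cytokine by which basophils promote type 2 responses, was at 3.761, 2.859 and 3.693 RPKM in dnTCF4 and at 3.312, 0.6465 and 0.65 RPKM in WT, with overlap through WT replicate 1 (log2 fold change 0.96, limma adjusted p = 0.49). Cd200r3, an activating receptor of basophils and mast cells, was below the level needed for testing, at 0.1908, 0.3677 and 0.2504 RPKM in dnTCF4 and at 0.5685, 0.7657 and 0.4072 RPKM in WT, and was lower in dnTCF4 without overlap. Il18rap, a chain of the interleukin-18 receptor, was also lower without overlap, at 5.794, 5.926 and 5.768 RPKM in dnTCF4 and at 12.82, 6.985 and 7.768 RPKM in WT (log2 fold change -0.53, limma adjusted p = 0.54). In the other direction, Itga2, an integrin chain that was also not tested, was higher in dnTCF4 without overlap. It was at 0.8736, 1.19 and 0.9674 RPKM in dnTCF4 and at 0.7264, 0.5515 and 0.7703 RPKM in WT. Cd200r3, Il18rap and Itga2 are named after their values were seen. Il3ra, the receptor chain for the basophil growth factor interleukin-3, stood at 0.4128 ± 0.0826 RPKM in dnTCF4 and at 0.3764 ± 0.115 RPKM in WT and was not tested.

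Among further mast cell genes 11 of 13 tested had higher values in dnTCF4 (9 after median ratio scaling), with a median log2 fold change of 0.37 and 0 calls. Itgb7, the integrin chain used by mast cell precursors to reach the gut, was at 10.82, 6.453 and 10.21 RPKM in dnTCF4 and at 4.507, 5.489 and 5.492 RPKM in WT (log2 fold change 0.70, limma adjusted p = 0.38). Srgn, serglycin, whose proteoglycan packs granule proteases in several blood cell types, averaged 1279 ± 285 RPKM in dnTCF4 and 839.6 ± 121 RPKM in WT, again without overlap (limma adjusted p = 0.45). Il1rl1, the receptor for interleukin-33, was at 1.185, 3.214 and 2.179 RPKM in dnTCF4 and at 1.199, 0.829 and 0.9769 RPKM in WT (log2 fold change 0.63, limma adjusted p = 0.50). Ptgs1, cyclooxygenase 1, averaged 22.82 ± 7.58 RPKM in dnTCF4 and 15 ± 2.55 RPKM in WT (limma adjusted p = 0.59). Kit, the stem cell factor receptor that defines the gate and that mast cells keep, was at 69.15 ± 31.2 RPKM in dnTCF4 and 64.22 ± 18.3 RPKM in WT (log2 fold change 0.03, limma adjusted p = 0.98; -0.20 after median ratio scaling). Genes of mature mast cells ranged widely in level. Tpsab1, Mcpt9 and Mrgprb1 were listed at 0 in all 6 libraries, and Mcpt4, a chymase of mature connective tissue mast cells, was at 0.2988 ± 0.0723 RPKM in dnTCF4 and at 0.2847 ± 0.301 RPKM in WT. Tpsb2, a tryptase, was at 3.99 to 11.25 RPKM in dnTCF4 and at 2.958 to 4.946 RPKM in WT, Hdc, which makes histamine, at 3.75 to 15.95 RPKM in dnTCF4 and at 4.878 to 11.98 RPKM in WT, and Slc18a2, which loads amines into granules, at 14.73 to 32.23 RPKM in dnTCF4 and at 11.21 to 23.61 RPKM in WT, all with overlap. Mrgprb2, Rab27b and Alox5 were too low to be tested and were higher in dnTCF4 without overlap. Mrgprb2 was at 0.4342 to 0.4363 RPKM in dnTCF4 and at 0.1013 to 0.128 RPKM in WT. Rab27b was at 0.4098 to 0.7588 RPKM in dnTCF4 and at 0.2229 to 0.278 RPKM in WT. For Alox5 these were 0.7608 to 1.331 and 0.3836 to 0.7266 RPKM.

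Of 8 tested eosinophil genes beyond the 3 above, 7 had higher values in dnTCF4, also after median ratio scaling, and 0 were called. Adgre1, the F4/80 antigen carried by eosinophils and macrophages, was at 2.605, 3.24 and 2.841 RPKM in dnTCF4 and at 1.427, 1.093 and 0.7874 RPKM in WT, without overlap (log2 fold change 0.90, limma adjusted p = 0.14). Siglecf, a surface lectin of mouse eosinophils, averaged 7.689 ± 1.51 RPKM in dnTCF4 and 5.068 ± 1.91 RPKM in WT (limma adjusted p = 0.58). Ear2, an eosinophil-associated ribonuclease whose near-identical copies make its value uncertain, averaged 7.577 ± 4.22 RPKM in dnTCF4 and 3.002 ± 1.89 RPKM in WT (limma adjusted p = 0.51). Csf2ra, the GM-CSF receptor alpha chain, averaged 2.405 ± 0.609 RPKM in dnTCF4 and 1.420 ± 0.700 RPKM in WT (limma adjusted p = 0.58). Ccr3, the eotaxin receptor of mature eosinophils, was at 0.3618 ± 0.243 RPKM in dnTCF4 and at 0.3217 ± 0.199 RPKM in WT and was not tested.

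Signalling genes downstream of the IgE receptor are shared with other immune receptors, and of 15 tested 12 had higher values in dnTCF4 (9 after median ratio scaling) and 0 were called. Lcp2, the adaptor SLP-76, was at 74.31, 80.07 and 73.62 RPKM in dnTCF4 and at 53.01, 43.17 and 45.22 RPKM in WT, without overlap (log2 fold change 0.68, limma adjusted p = 0.21). The kinase genes Btk and Lyn averaged 94.37 ± 15.3 and 12.44 ± 2.62 RPKM in dnTCF4 and 62.59 ± 7.48 and 8.332 ± 1.02 RPKM in WT (limma adjusted p = 0.42 for Btk and 0.49 for Lyn). Stim1, the calcium sensor of the endoplasmic reticulum, averaged 4.148 ± 0.106 RPKM in dnTCF4 and 3.157 ± 0.356 RPKM in WT (limma adjusted p = 0.59).

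Of 21 tested regulators of the 3 lineages 0 were called, and 15 had higher values in dnTCF4 (8 after median ratio scaling). Gata2 was at 7.435, 7.382 and 7.293 RPKM in dnTCF4 and at 4.502, 6.412 and 7.645 RPKM in WT, with overlap (log2 fold change 0.24, limma adjusted p = 0.71). Leaving out WT replicate 1 gave 0.06 for Gata2 and leaving out WT replicate 3 gave 0.39, and it was 0.06 in replicates 2 and 3 only and 0.04 after median ratio scaling. Gata1 was at 49.68, 60.57 and 21.59 RPKM in dnTCF4 and at 24.06, 43.22 and 39.62 RPKM in WT (log2 fold change 0.22, limma adjusted p = 0.83; -0.01 after median ratio scaling). Cebpa was at 1.396, 1.225 and 2.664 RPKM in dnTCF4 and at 1.775, 2.5 and 2.706 RPKM in WT (log2 fold change -0.29, limma adjusted p = 0.71). Groups did not overlap for Cebpb, a C/EBP factor of myeloid cells, at 1.62 ± 0.264 RPKM in dnTCF4 and 0.5997 ± 0.129 RPKM in WT (limma adjusted p = 0.16). Cebpb averaged 1.11 RPKM over all libraries and passed the filter only through its dnTCF4 values. Xbp1, a factor needed by eosinophil precursors and by plasma cells, was at 10.76, 6.427 and 11.06 RPKM in dnTCF4 and at 17.34, 12.21 and 15.1 RPKM in WT, lower without overlap (log2 fold change -0.63, limma adjusted p = 0.49). Zfpm1, the GATA partner FOG-1, averaged 1.271 ± 0.0708 RPKM in dnTCF4 and 0.8383 ± 0.0262 RPKM in WT (limma adjusted p = 0.52), and Tal1, which acts with GATA factors, 7.901 ± 3.03 RPKM in dnTCF4 and 4.808 ± 1.18 RPKM in WT (limma adjusted p = 0.57). Zfpm1, at a mean of 1.05 RPKM over all libraries, also passed the filter only through its dnTCF4 values.

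**Figure D4:**
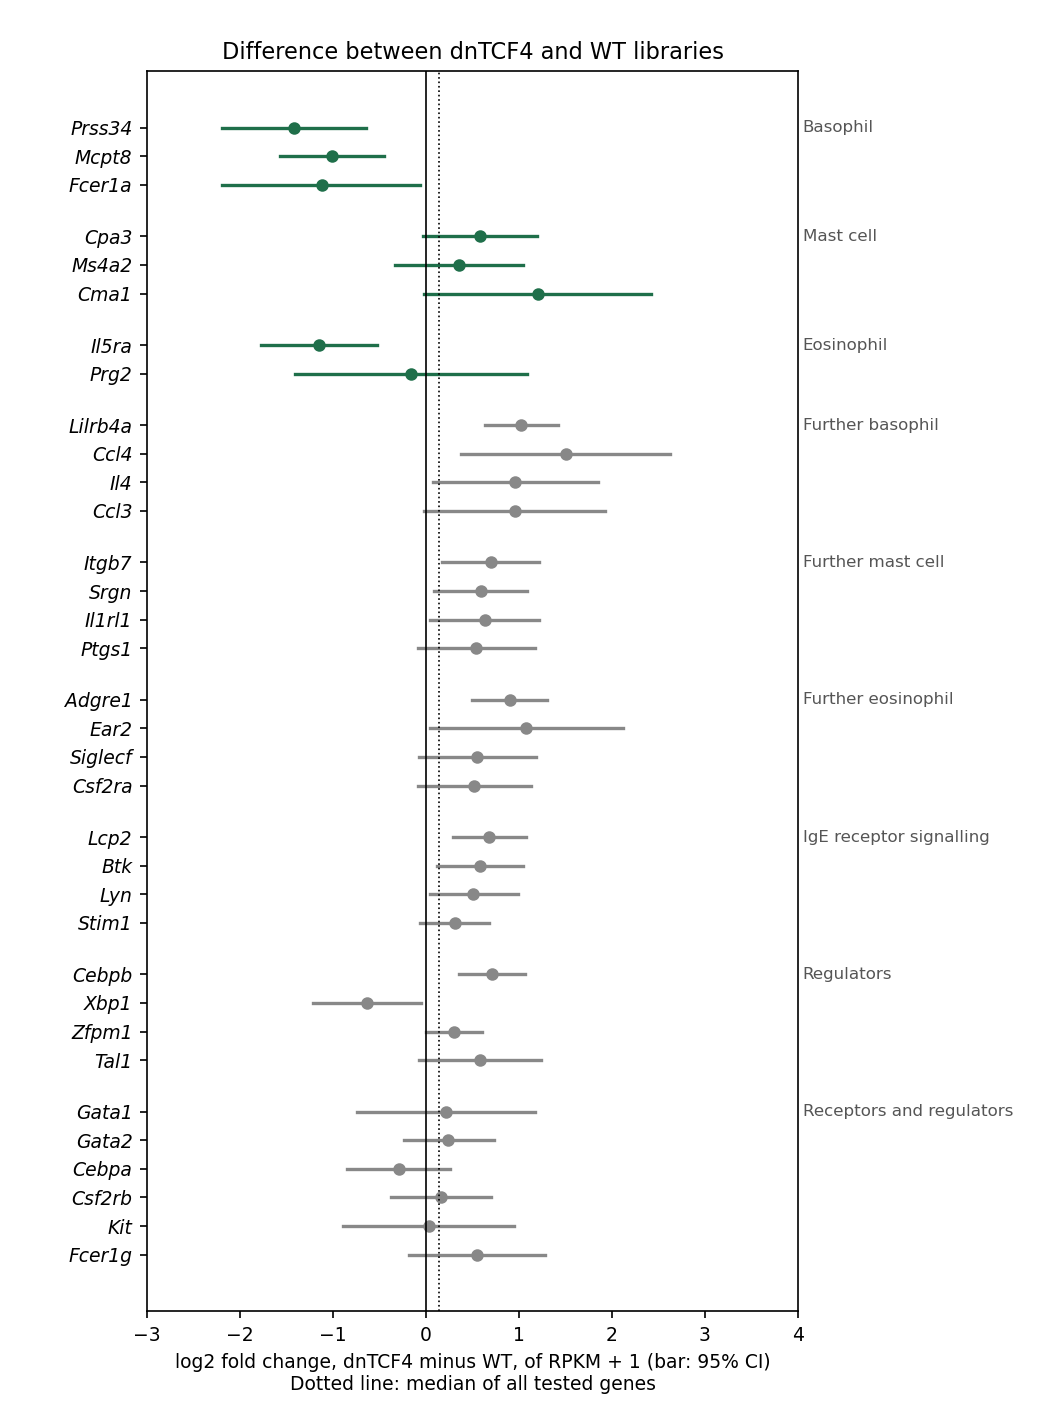
Log2 fold changes of RPKM + 1, dnTCF4 minus WT, with 95% confidence intervals, for the 8 tested genes (green) and for 26 further tested genes of the lists (grey); the dotted line is the median of all tested genes at 0.14. The intervals of the 3 basophil genes and of Il5ra lie below 0. Positive values are shown for 24 of the 26 further genes, of which Gata1, Csf2rb and Kit turn negative after median ratio scaling. Most of the 26 are the 4 genes of each list with the smallest p, so they are not a fair sample of the lists. Over the 71 tested genes of the lists 56 were positive, against 68.5% of all tested genes. After median ratio scaling 39 of the 71 were, against 41.4%.

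Markers of other cells were also read in these libraries, and 0 of those in this paragraph were called, against 0.3% of all tested genes. The 11 neutrophil markers summed to 3165 to 7643 RPKM in dnTCF4 and to 744.2 to 3241 RPKM in WT, with 8 of 10 tested higher and ranges that overlapped, and the 10 erythroblast markers to 1370 to 1583 RPKM in dnTCF4 and to 781.7 to 949.2 RPKM in WT, with 7 of 7 higher. The 7 megakaryocyte markers summed to 125.2 to 163.9 RPKM in dnTCF4 and to 50.61 to 71.87 RPKM in WT, with 4 of 4 higher. The erythroblast and megakaryocyte ranges did not overlap. Of all tested genes 68.5% were higher in dnTCF4, and 41.4% after median ratio scaling. Pf4 made most of the megakaryocyte sum, at 112.5 to 153 RPKM in dnTCF4 and 42.36 to 62.31 RPKM in WT. Gp9 and Gp1bb were also higher without overlap, whereas Ppbp, Itga2b, Itgb3 and Vwf overlapped (log2 fold change -0.01 to 0.10). Car1, with overlap, and Car2, without, made most of the erythroblast sum. Klf1, an erythroblast marker with a mean of 1.12 RPKM over all libraries, entered the test only through its dnTCF4 values. Early granulocyte genes (6 markers, 1294 to 2291 RPKM in dnTCF4 and 1410 to 3791 RPKM in WT), monocyte genes (6 markers, 235.9 to 320.6 RPKM in dnTCF4 and 261.2 to 354.6 RPKM in WT) and genes of T and innate lymphoid cells (8 markers, 6.753 to 17.9 RPKM in dnTCF4 and 5.651 to 17.01 RPKM in WT) had overlapping ranges. None of these markers was at 0 in all 6 libraries, and their part in the lower values of the basophil genes was not tested. When the libraries were rescaled without their immunoglobulin genes, the log2 fold changes were -1.54 for Prss34, -1.13 for Mcpt8, -1.25 for Fcer1a and -1.24 for Il5ra.

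The genes whose profiles over the 6 libraries were most like the most abundant member of each class were found by the root-mean-square difference of centred log2(RPKM + 1) values, among genes that averaged 5 RPKM or more. Closest to Prss34 were Slamf7 (0.341), Mcpt8 (0.346), Iglv2 (0.346), Slpi (0.350) and Hemgn (0.415). Slamf7, a receptor of plasma cells and other leukocytes, was at 3.232, 2.352 and 3.099 RPKM in dnTCF4 and at 11.97, 7.626 and 7.373 RPKM in WT, and Iglv2 is an immunoglobulin light chain segment. Fcer1a lay at 0.72 from Prss34 (rank 238, with Prss34 itself at rank 1). Il5ra, too low to be ranked, lay at 0.35, a distance that depends on the pseudocount of 1 for so low a gene. Closest to Cpa3 were Nckap1l (0.107), Txnip (0.112), Sla (0.113), Gnl3l (0.147) and Tmem150b (0.148), whereas Ms4a2 was at 0.38 (rank 1530) and Cma1 at 0.67 (rank 4956). Closest to Prg2 were Gm23971 (0.261), Ly6a, the gene of Sca-1 (0.293), Il12a (0.364), Gm8797 (0.367) and Cd86 (0.383). With Ly6a at 164.2, 76.76 and 120.9 RPKM in dnTCF4 and at 235.6, 98.54 and 93.34 RPKM in WT, replicate 1 was highest in both genotypes, as for Prg2 in WT. These distances describe the same 6 libraries and were not tested.

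**Figure D5:**
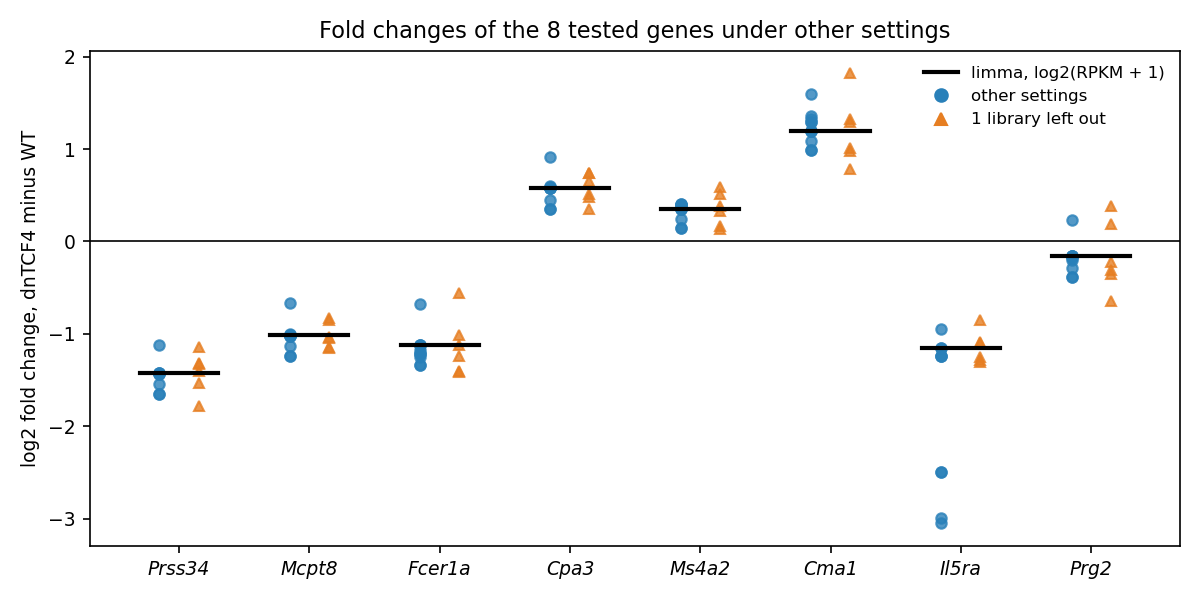
Log2 fold change, dnTCF4 minus WT, of the 8 tested genes in the limma fit on log2(RPKM + 1) (black bars), under other settings (blue points) and with 1 library left out (orange triangles). Prss34, Mcpt8, Fcer1a and Il5ra stay below 0 and Cpa3, Ms4a2 and Cma1 above 0 in all fits shown, while Prg2 takes both signs; the low blue points of Il5ra, at -2.50 to -3.05, come from a pseudocount of 0.1 or from voom.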

How the data were processed

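The deposited table holds RPKM values for 6 libraries of poly(A) RNA, 3 per genotype, made by the authors. The tools edgeR, DESeq2, featureCounts and STAR are named, without role or version, per the submitters' processing notes, as are GRCm38 and mm10. Per the labels' protocols, complementary DNA came from a SMART-Seq v4 kit, whereas the design text names a SMARTer Universal kit, and libraries from Nextera XT. Values were multiplied by union exon lengths (GENCODE M21, GRCm38) and fell on whole reads, within 0.02 of a read, for 96.1% to 96.6% of genes checked; the values of Prss34 did not, and no reads are given for it. The limit for a count of 0 is 3 reads per library and covers counting error only; confidence intervals are those of limma, from the spread between libraries. Genes that averaged 1 RPKM or more entered limma 3.58.1 (R 4.3.3) as log2(RPKM + 1), with a trended, two-sided test adjusted over all of them, after a check on simulated data. The simulated libraries had a fixed spread, no link between same-numbered libraries and no difference in immunoglobulin share. The check therefore does not cover these features of the real libraries. Same-numbered libraries deviated together (correlations 0.17, 0.35 and 0.30, bound 0.1), so values are also given by pairs of equal number. The limma p-values and intervals ignore these pairs except where the block is named. A fit with the number as a block was an alternative. The other alternatives were median ratio scaling, immunoglobulin genes left out, pseudocount 0.1, no filter, a mean of 5 RPKM, replicates 2 and 3 only, voom on recovered reads and each library left out. The members and lists were chosen with earlier results of these data known. Named were all 9 members, the 4 tested genes of each list with the smallest p, 8 preset genes and the genes most like a member. The others, such as Cd200r3, Il18rap, Itga2, Tpsb2, Hdc, Slc18a2, Mcpt4, Mrgprb2, Rab27b, Alox5, Klf1, Ccr3 and the B lineage genes, were named after their values were seen. Every pair of libraries within a group differed beyond sampling noise (lowest chi-square per gene 144).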

Additional observations from a re-analysis of the deposited data

How the results depend on the processing

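Of the 9 genes 0 were called in the limma fit and under each alternative but a pair of them, both added after the data had been seen: the replicate block with median ratio scaling and the replicate block with voom on recovered reads each called 1, Il5ra. The replicate block alone called 49 genes of the whole table, against 34 without it, and changed no call among the 9 genes and the further lineage genes. The count over the whole table was 18 after median ratio scaling, 0 with immunoglobulin genes left out (671 at an unadjusted limma p under 0.05), 6 with no filter, 10 in replicates 2 and 3 only, 14 with voom and 123 with the block and median ratio scaling, and it ranged from 7 (without WT replicate 1) to 30 with 1 library left out; the cause was not tested. Of these calls 5 were higher in the limma fit, 7 with the block, 17 with the block and median ratio scaling and 1 with no filter or without dnTCF4 replicate 1, and 0 after median ratio scaling, with immunoglobulin genes left out, in replicates 2 and 3 only, with voom and without any other library. Of the further lineage genes 0 were called under every alternative tried. Prss34, Mcpt8, Fcer1a, Il5ra, Cpa3, Ms4a2 and Cma1 kept their direction in every alternative that gave a value. Prg2 turned to 0.23 in replicates 2 and 3 only, 0.19 without dnTCF4 replicate 2 and 0.38 without WT replicate 1 (range -0.64 to 0.38 with 1 library left out). After median ratio scaling, with or without the block, the log2 fold change was -0.01 for Gata1, -0.06 for Csf2rb and -0.20 for Kit. In replicates 2 and 3 only it was -0.18 for Gata1 and -0.28 for Kit, and for Kit -0.10 with immunoglobulin genes left out. Gata1 was at -0.07 without dnTCF4 replicate 2 and -0.04 without WT replicate 1 (range -0.07 to 0.65), and Kit at -0.09 without dnTCF4 replicate 1, -0.27 without dnTCF4 replicate 2 and -0.17 without WT replicate 1 (range -0.27 to 0.44). Leaving out a library leaves 2 in its group. Il5ra was not in the fit with a mean of 5 RPKM, Prss34 not in voom, and Epx only in the fit with no filter (limma adjusted p = 0.88).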
